A study of Drosophila melanogaster with 4 samples.

Results

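PGRP-SD (CG7496) and Rel (CG11992) were the only peptidoglycan recognition or immune deficiency (IMD) pathway genes, of 35 looked for by name, that had a row in the authors' deposited table of regulated genes from the fly airway. They were found by locus, as 2 of the 244 genes of that table. The pair and the lists were chosen with earlier results of these data known. The share of all array genes with a row is not known here, so this count is not read as a result about the pathway. Tracheae of Drosophila melanogaster larvae of the third instar, aged 10 days and raised at 22 °C, were compared on 4 two-colour microarrays, on which 2 labelled RNAs compete for the same spots. One RNA came from the F1 of the cross NP2610::UAS-PGRP-LE, in which the GAL4 driver NP2610, described as specific for the larval tracheal system, turns on a transgene for the receptor PGRP-LE. The control RNA came from the driver strain NP2610 itself. Both sides carry the driver, though the F1 of a cross may carry fewer copies of it. The labels name no infection on either side. Each RNA was taken from 20 pairs of tracheae. The titles give 2 biological replicates with 2 arrays each. The cross brings in a second strain's genome together with PGRP-LE and may change the driver's dose, and these cannot be told apart. No control with the transgene but without the driver is among the samples described here.

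The IMD pathway is the fly's main response to bacteria whose peptidoglycan carries diaminopimelic acid. Recognition proteins of the PGRP family bind this peptidoglycan, the receptors PGRP-LC and PGRP-LE pass the signal to the adaptor imd, and a chain of a caspase, ubiquitin enzymes and kinases then releases Relish, the NF-kappa B protein encoded by Rel. Relish is made as a precursor whose C-terminal part holds it in the cytoplasm. Its cleaved N-terminal part enters the nucleus and turns on genes for antimicrobial peptides. PGRP-SD is a secreted member of the family, first linked to the recognition of Gram-positive bacteria through the Toll pathway and later to the IMD pathway. Both genes are known from infected flies as genes whose own transcripts can increase when the pathway is active. The question here is whether they did so in an airway in which the cross was set up to express PGRP-LE. The labels name no infection, but its absence was not measured.

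Both genes were on the higher side in tracheae of the PGRP-LE cross. PGRP-SD had a mean log2 ratio of 1.17 in the authors' deposited table, a 2.25-fold difference, with an authors' SD of 0.72 on the log2 scale over 7 valid spots. For Rel the authors' deposited table gave a mean log2 ratio of 0.96, a 1.95-fold difference, with an authors' SD of 0.70 over 13 valid spots. One SD on either side of the mean spans 0.45 to 1.89 for PGRP-SD and 0.26 to 1.66 for Rel in the authors' deposited table. The ranges overlap each other over most of their length. Both lie above 0, as they do for all 187 rows with a positive mean, so this says nothing particular about the pair. The means differed by 0.21 (PGRP-SD minus Rel), less than either SD.

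"Higher" rests on the likely direction of the ratio. The file does not say which RNA is the numerator, but it names its comparison after the cross (with the driver's number as NP2160), and the cross is in channel 1 of every array in the labels. PGRP-LE, whose ratio would have checked the direction, had no row. Its overexpression is therefore not shown by any value here. The authors' deposited table put 76.6% of its 244 genes on the higher side, so finding both genes on that side is close to what the table as a whole shows and says little about the pair. The authors chose the table's genes for a change on these same arrays. No p-value per gene is among its columns, and none was computed here, because the SD is taken over spots, and spots on 1 array, or on the 2 arrays of 1 RNA pair, are not separate samples.

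**Figure D1:**
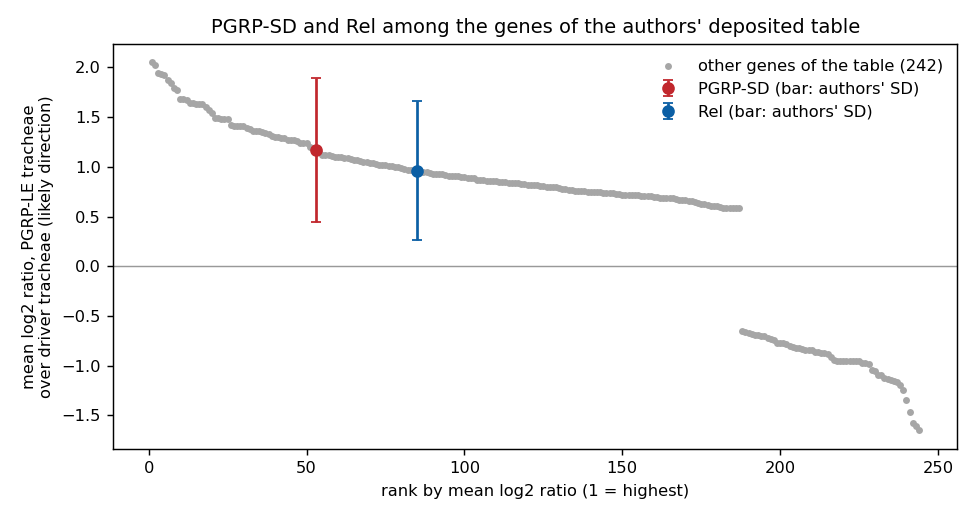
Mean log2 ratio (vertical axis; likely PGRP-LE tracheae over driver tracheae) of all 244 genes of the authors' deposited table, ordered from the highest to the lowest (horizontal axis, rank). PGRP-SD at 1.17 and Rel at 0.96 carry bars of 1 authors' SD over spots; 52 genes lie above PGRP-SD and 83 above Rel.

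In the order of the table, 52 genes had a higher mean than PGRP-SD and 83 had a higher mean than Rel. With the ratio turned the other way these counts would be 191 and 158. The median over the 187 higher genes was 0.92 in the authors' deposited table, so Rel sat near the middle of them and PGRP-SD somewhat above it. Directly above PGRP-SD stood Rgk2 at 1.19 (SD 0.84) and DptA, which encodes the antibacterial peptide Diptericin A, at 1.20 (SD 0.31) in the authors' deposited table. Directly below it was CG30036 at 1.15 (SD 0.56). These 3 neighbours were picked for the nearest means, so their closeness to PGRP-SD was fixed by the choice. Rel was tied at 0.96 with Ent3, named in the file as an equilibrative nucleoside transporter, and with CG32485. The attacin gene AttD, another antibacterial peptide gene, and CG3348 were just above Rel at 0.97 (SD 0.31 and SD 0.72) in the authors' deposited table. With 1 pooled value per gene there is no pattern over arrays by which genes most like PGRP-SD or Rel could be ranked, so these neighbours share a mean and nothing more is known of their likeness.

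The SD of both genes was wide for the table, but relative to the mean only that of Rel was. The authors' SD over spots had a median of 0.52 across the 244 genes, below the 0.72 of PGRP-SD and the 0.70 of Rel. Relative to the mean, the coefficient of variation in the authors' deposited table was 0.61 for PGRP-SD, near the table's median of 0.585. For PGRP-SD, 132 genes had a smaller one. Rel had 0.73, and 179 genes had a smaller one. In all 244 rows the size of the mean exceeded the SD, with a highest coefficient of variation of 0.97, so that property, which both genes share, marks the table and not the pair.

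**Figure D2:**
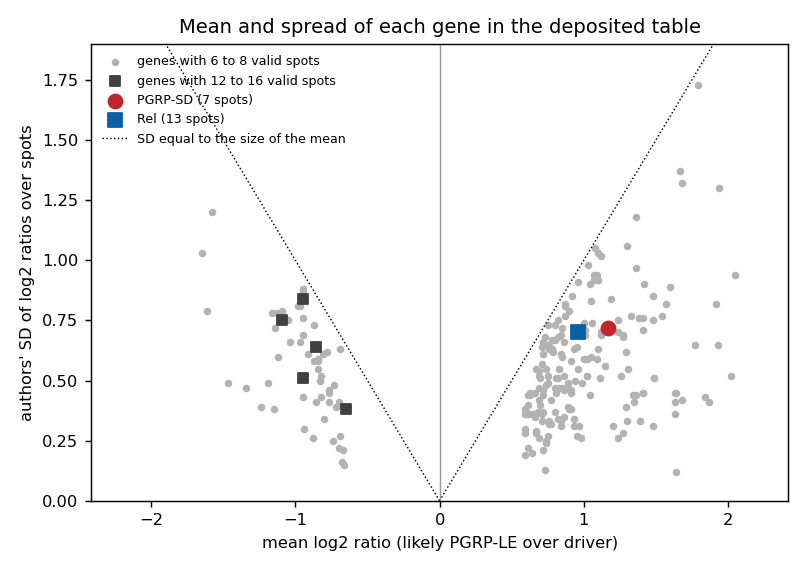
Authors' SD over spots (vertical axis, log2 scale) against mean log2 ratio (horizontal axis; likely PGRP-LE over driver) for each gene of the deposited table, with squares for the 6 genes that have 12 to 16 valid spots and dotted lines where the SD equals the size of the mean. PGRP-SD (SD 0.72) and Rel (SD 0.70) lie above the median SD of 0.52, and Rel is the only square to the right of 0.

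Rel rested on more spots than nearly every other gene. In the authors' deposited table, 238 of 244 genes had 6 to 8 valid spots, PGRP-SD with 7 among them, and 6 had 12 to 16. Rel, with 13, was the only one of those 6 with a positive mean. The other 5, named here because of their spot number and after their values were seen, were the ribosomal protein genes RpL7A at -0.65 and sta at -0.95, the nuclear receptor gene Hr39 at -0.86, the non-coding RNA roX2 at -0.95 and the muscle gene Mf at -1.09 in the authors' deposited table. More spots per array narrow the error of a spot mean. They do not add biological replicates, of which there were 2. The sources used here do not say whether the 13 spots for Rel carry the same probe or different ones. Its mean and SD may therefore pool different probes.

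The other members of the pathway gave no value. Of 13 PGRP genes, 12 had no row. Among them was PGRP-LE itself, the receptor that the cross was set up to express. The membrane receptor PGRP-LC, its inhibitory relative PGRP-LF, and the membrane proteins PGRP-LA and PGRP-LD had none either. PGRP-SA, the secreted protein that starts the Toll pathway, had none either. PGRP-LB, PGRP-SB1, PGRP-SC1a, PGRP-SC1b and PGRP-SC2, enzymes that cut peptidoglycan and so remove the signal, also lacked a row, as did the secreted PGRP-SB2.

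Of 13 genes for IMD signalling, Rel was the only one with a row. The 12 without one were the adaptors imd and Fadd, the caspase Dredd, which cleaves Relish, the ubiquitin ligase Diap2 with the ubiquitin-conjugating enzymes ben, Uev1A and eff, the kinase Tak1 and its partner Tab2, the IKK subunits IKKbeta and key, and the nuclear cofactor akirin. None of 9 negative regulators had a row. These were pirk, which blocks the receptors and is a well-known target of Relish, and casp, trbd, dnr1, POSH, CYLD, scny, slmb and SkpA. In all, 33 of the 35 genes had none. The share of all genes on the array that had a row is not known here. Counts of genes with or without a row, in this list and the others, therefore have no base to be set beside. They are not read as a result about the pathway. A missing row says that the authors did not select the gene, or that it was not measured well enough to be selected. It gives no level and does not show that the gene was unchanged. Whether any of the 33 had a spot on the array was not analysed here.

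PGRP-SD and Rel lay between the highest and the lowest of the antimicrobial peptide genes that had a row. So did most of the 187 higher genes, because those peptide genes ranked from 2 (AttC) to 107 (DptB) among all 244. A place in this range therefore says little about the pair. Of 14 antimicrobial peptide genes, 7 had a row in the authors' deposited table, all with a positive mean, against 76.6% of all rows. Their median log2 ratio was 1.20. AttC, an attacin gene, was the highest at 2.02 (SD 0.52 over 8 spots), and DptB, which encodes Diptericin B, the lowest at 0.86 (SD 0.35 over 6 spots). PGRP-SD at 1.17 was close to the median of these 7 and Rel at 0.96 stood above DptB alone. AttC exceeded PGRP-SD by more than the SD of PGRP-SD, and Rel by more than the SD of Rel, with no test. AttC was picked as the highest of the 7, so a gap was built into the choice. An SD over spots is also not the error of a difference between means, so no conclusion is drawn from it. Of 9 genes of the Toll pathway, the other NF-kappa B pathway of the fly, none had a row.

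**Figure D3:**
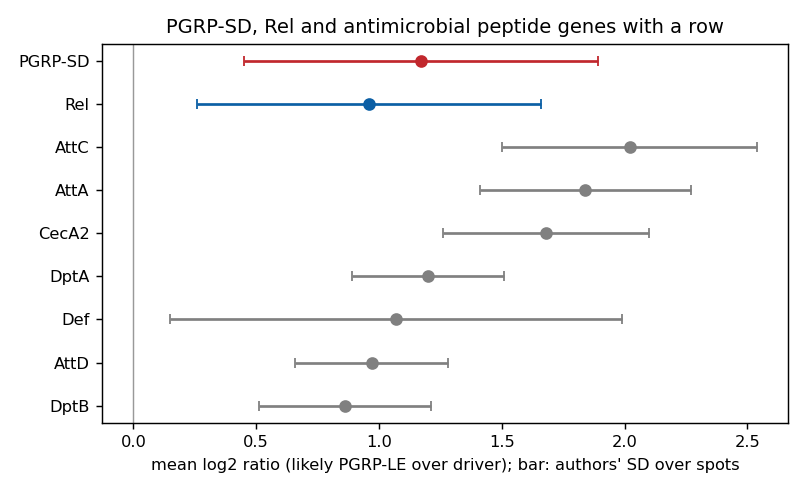
Mean log2 ratio (horizontal axis; likely PGRP-LE over driver) with bars of 1 authors' SD over spots for PGRP-SD, Rel and the 7 antimicrobial peptide genes with a row (vertical axis). All 9 means are positive; PGRP-SD at 1.17 is near the median of the peptide genes, 1.20, and Rel at 0.96 is above DptB at 0.86 and next to AttD at 0.97.

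The annotation column of the same file describes what the pair shares. It lists 7 Gene Ontology terms for PGRP-SD and 19 for Rel. The only term listed for both was immune response, and no other row of the table carried it, although 152 rows had some annotation. Terms were matched by exact wording. Peptide genes stood under related terms, such as DptA under innate immune response and AttC under defense response. The shared wording is therefore not a trait particular to the pair. Peptidoglycan binding and N-acetylmuramoyl-L-alanine amidase activity were listed for PGRP-SD alone. The second of these is the peptidoglycan-cutting activity of the family's enzymes, assigned in the file without an experiment (evidence code IEA), and PGRP-SD is known as a member without it. For Rel, 8 of its 19 terms were on no other row, among them the I-kappaB kinase/NF-kappaB cascade, antibacterial polypeptide induction, antifungal polypeptide induction and the Toll signaling pathway.

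Terms on defence placed each gene beside peptide genes. The broadest of them, defense response, was listed for 13 rows, PGRP-SD among them, of which 10 were higher and 3 lower in the authors' deposited table, near the 76.6% higher over all rows. The lower ones were the glutathione transferase gene GstT3 at -0.70, the small heat shock gene Hsp26 at -0.91 and dsd at -0.95. The genes in this paragraph and the next were named through the annotation after their values were seen. Defense response to Gram-positive bacteria was listed for 3 rows, all with positive means in the authors' deposited table: the cecropin gene CecA2 at 1.68 (SD 0.42), PGRP-SD at 1.17 and the defensin gene Def at 1.07 (SD 0.92). Defense response to Gram-negative bacteria was listed for 4 rows, again all positive in the authors' deposited table. They were the attacin gene AttA at 1.84 (SD 0.43), CecA2 at 1.68, DptA at 1.20 and Rel, the lowest, at 0.96. Of the 14 rows listed as extracellular, where PGRP-SD acts, 12 were higher and 2 lower, with a median of 1.25 in the authors' deposited table, just above the 1.17 of PGRP-SD. The 2 lower ones were gbb, which encodes a BMP-type ligand, at -0.77 and Lsp2, a storage protein gene of the fat body, at -0.86.

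Genes listed under Rel's nuclear terms lay on both the higher and the lower side, in small counts. Of 10 rows listed under nucleus, 6 were higher and 4 lower in the authors' deposited table, and of 6 listed under transcription factor activity, 5 were higher and 1 lower. Among those 6, Rel at 0.96 stood between CrebA, a leucine zipper factor of secretory cells, at 1.05 (SD 0.83) and Camta, a calmodulin-binding factor, at 0.94 (SD 0.50). Hr39 was the lower one at -0.86 (SD 0.64). Of 6 rows under regulation of transcription from Pol II promoter, 3 were higher, Rel included, and 3 were lower in the authors' deposited table. These shares are set beside 76.6% higher over all 244 rows, with no test.

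In genome order, neither gene lay next to another gene of the table. PGRP-SD is on chromosome arm 3L, where 45 of the table's genes lie. The nearest on one side was the non-coding RNA gene CR32368, with 19 annotated genes in between and a mean of 1.64 (SD 0.45), and on the other the cuticle pseudogene Lcp65APsi, with 200 genes in between and a mean of 1.03 (SD 0.98) in the authors' deposited table. Rel is on arm 3R with 52 genes of the table. On one side, 8 annotated genes separated it from CG11983, whose mean of 2.05 (SD 0.94) was the highest of all 244 in the authors' deposited table. On the other side, 138 separated it from CG8526 at 1.12 (SD 0.70). The usual spacing of the table's genes along an arm was not worked out, so these distances are not read as a cluster. By CG number, the running number of a fly gene model, the rows within 20 of Rel were CG11983 and CG11975, at 2.05 and 0.69 and both on 3R, while no row came within 20 of PGRP-SD. RefSeq lists 1 transcript for PGRP-SD and 4 for Rel. The sources used here do not say which of the 4 the spots for Rel detect.

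The arrays give RNA ratios for whole dissected tracheae, so more cells that carry a transcript and more transcript per cell cannot be told apart, and cleavage of the Relish protein was not measured. Of 25 marker genes for airway, blood cells, fat body and muscle, 2 had a row. The fat body gene Lsp2 stood at -0.86 (SD 0.41) and the muscle gene Mf at -1.09 (SD 0.75) in the authors' deposited table, on the side opposite to PGRP-SD and Rel. None of 6 blood cell markers had a row. The blood cell genes NimB2, annotated in the file as extracellular, and atilla were not in that list and were named after their values were seen. NimB2 stood at 0.80 (SD 0.67) and atilla at 0.74 (SD 0.48) in the authors' deposited table, on the same side as PGRP-SD and Rel. Of all 244 rows, 76.6% had a positive mean, so a shared side says little about these genes. None of 8 airway markers had a row, and a table of ratios gives no level by which the tissue label could be checked. The part of other tissues in the ratios of PGRP-SD and Rel was not tested.

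The values per array used here belong to numbered spots without a gene name, so the value of PGRP-SD or Rel on each of the 4 arrays was not analysed here. That second table holds 32448 numbered spots. The column medians were 0.98 and -0.39 on the arrays of the first biological replicate and -0.07 and -0.41 on those of the second, so the values are not centred. Across spots, which are not independent replicates, Pearson's r between columns ranged from -0.086 to 0.106. It was -0.086 between the 2 arrays of the first replicate and 0.008 between those of the second. The scale, the direction and the handling of swapped dyes in these columns are unknown. The labels give Cy3 for the cross and Cy5 for the driver strain on 2 arrays and the reverse on 1, while on the remaining array both channels are given Cy5. The labelling protocols name Cy3 for the cross and Cy5 for the driver strain on all 4 arrays, so they differ from the label fields on 2 of them. If the protocols are right, dye and cross cannot be told apart in the pooled values of PGRP-SD and Rel.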

How the data were processed

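Two-colour arrays compared RNA of NP2610::UAS-PGRP-LE tracheae with RNA of NP2610 tracheae. Per the series' design text, the deposited table lists genes selected from the output of SAM and GeneTraffic. Per the file headers, the authors deposited for each gene a mean log2 ratio, its standard deviation, a coefficient of variation (a ratio, equal to SD over the size of the mean within 0.014) and a count of valid spots. The standard deviation, a score in the unit list used here, is on the log2 scale. A second deposited table holds a score per spot and array, taken to be a log ratio of unstated base. The sources used here do not give background correction, normalization, spot filters or the thresholds for selection.

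PGRP-SD and Rel were taken by CG number. Identifiers were matched to RefSeq names (assembly Release 6): 227 matched by locus tag, 13 through a single synonym, and 4 not at all. All 35 pathway genes had an entry. Fold differences are powers of 2 of the means. A limma fit per gene, planned on values per array, could not be made because those spots carry no gene names. Named genes were PGRP-SD, Rel, all genes of 3 pathway lists and the extremes of the peptide list, with others named after their values were seen. Members and lists were chosen with earlier results of these data known. Gene order along each arm came from the same RefSeq table, whose coordinates are not printed because the build behind the spots is unknown. Sequences and promoter motifs were not used here. The number of spots and arrays limits the precision. Python 3.11.15, numpy 2.4.6, pandas 2.3.3 and matplotlib 3.10.9 were used.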

Additional observations from a re-analysis of the deposited data

How the results depend on the processing

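Reading the ratio the other way gives -1.17 for PGRP-SD, -0.96 for Rel and -0.21 for PGRP-SD minus Rel, and leaves 57 higher genes in place of 187. The genes above PGRP-SD then number 191 in place of 52, and those above Rel 158 in place of 83. The 2 pathway genes with a row fell to 1 at a log2 size of at least 1, where PGRP-SD was among the 95 genes left, to 1 with at least 8 valid spots, where Rel was among the 140 left, and to 0 of 80 genes with a coefficient of variation under 0.5. These 3 filters, like the turned counts and difference, were chosen after seeing the data. The other alternatives for PGRP-SD, Rel, the pathway genes and the number of genes past a threshold need values per array or per gene row and were not run: arrays as samples, a random block, a dye term, centring, filters on arrays, separate rows, each replicate left out and each array left out. The promoter motifs were not searched. No paired analysis was possible because each gene has 1 value, pooled over arrays. The 7 spots behind PGRP-SD and 13 behind Rel, on 2 biological replicates, limit the precision.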
